A study of Homo sapiens with 6 samples.

Results

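The regions described here are the SMARCA4 peaks of K562 cells that lay away from transcript starts and held a G-quadruplex (G4) motif. A peak belonged to them if its midpoint was more than 1 kb from every GENCODE transcript start on hg19 and if it wholly contained at least 1 G4 motif, read on both strands as 4 runs of 3 or more guanines with 1 to 7 bases between neighbouring runs. By this rule 1248 of the 28265 peaks of the deposited list were members (4.42%). They are called distal G4-motif peaks below, or members. The other classes of the list were 13104 distal peaks without a motif, 5353 promoter peaks with a motif and 8560 promoter peaks without one, where a promoter peak has its midpoint within 1 kb of a transcript start.

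The established K562 line comes from a chronic myelogenous leukaemia and has erythroid and megakaryocytic features, and it was profiled by ChIP-seq with an antibody against SMARCA4 after a double crosslink with disuccinimidyl glutarate and formaldehyde. The study asked where this protein binds chromatin in relation to G4 structures. There were 3 SMARCA4 ChIP libraries and 3 input libraries, made from chromatin that did not go through the antibody step, and no treatment or genotype was varied. The deposited description calls the libraries technical replicates with a single input, whereas the published text speaks of biological replicates. The list keeps the regions found in at least 2 of the 3 ChIP replicates and gives a start and an end for each, with no height and no value per replicate. No spread between replicates can therefore be given, and the list holds no read depth. Shares are given with 95% Wilson intervals and odds ratios with 95% Woolf intervals. These intervals and all p-values cover counting error over regions only, and neighbouring regions are not independent replicates.

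A G4 is a four-stranded fold in which guanine runs of a single DNA strand stack into planar tetrads, with the bases between the runs forming loops. Guanine runs are concentrated at CpG-rich promoters, and G4 folds have been mapped in nucleosome-depleted chromatin of human cells. SMARCA4 (BRG1) is an ATPase subunit of the SWI/SNF remodelling complexes, which move and evict nucleosomes at promoters and enhancers. In erythroid cells many enhancers are bound by GATA1 together with TAL1, LMO2 and LDB1. A sequence motif states only that the letters for a fold are present, and whether any of these motifs was folded in the cells cannot be read from a peak list.

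Some whole peaks are shown first, short ones that hold a G4 motif together with a GATA or AP-1 site. The sequences are the plus strand of hg19, 5′ to 3′, in lower case. Capitals mark the G4 motif, read as runs of C where the G strand is the minus strand, the GATA sites and the AP-1 sites. The GATA2 peak (chr3:128214417-128214689, 273 bp) lay 2509 bp upstream of the start of GATA2, a transcription factor of blood stem and progenitor cells, within a non-coding gene. It held GATA sites at bases 18 to 23 and 27 to 32, and its G4 motif ran from base 107 to base 131. The ZFPM1 peak (chr16:88575576-88575803, 228 bp) lay in an intron of ZFPM1, whose product FOG1 is a cofactor of GATA1. Its GATA sites at bases 72 to 77 and 184 to 189 stood on either side of the motif at bases 142 to 164. The peak whose nearest coding gene was VEGFA (chr6:43778807-43779048, 242 bp), in a non-coding gene 36838 bp downstream of the start of this angiogenic growth factor gene, had an AP-1 site at bases 78 to 84 and a GATA site at bases 188 to 193. That GATA site began 3 bases past the end of the G4 motif (bases 169 to 185). The CNBP peak (chr3:128930774-128930961, 188 bp), in a non-coding gene 28103 bp upstream of the start of CNBP, which encodes a zinc finger protein that binds G-rich nucleic acids, had its motif on the minus strand (bases 50 to 79) and an AP-1 site at bases 87 to 93.
GATA2: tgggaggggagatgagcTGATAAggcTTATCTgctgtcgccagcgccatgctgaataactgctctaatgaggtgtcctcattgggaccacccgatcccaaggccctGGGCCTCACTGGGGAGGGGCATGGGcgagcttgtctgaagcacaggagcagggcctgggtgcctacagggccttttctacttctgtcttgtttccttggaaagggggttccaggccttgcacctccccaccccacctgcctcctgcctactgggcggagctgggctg
ZFPM1: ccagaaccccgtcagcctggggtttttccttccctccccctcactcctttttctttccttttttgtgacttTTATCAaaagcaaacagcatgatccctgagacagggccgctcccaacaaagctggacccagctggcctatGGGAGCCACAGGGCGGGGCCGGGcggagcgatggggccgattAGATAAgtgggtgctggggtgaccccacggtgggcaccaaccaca
VEGFA: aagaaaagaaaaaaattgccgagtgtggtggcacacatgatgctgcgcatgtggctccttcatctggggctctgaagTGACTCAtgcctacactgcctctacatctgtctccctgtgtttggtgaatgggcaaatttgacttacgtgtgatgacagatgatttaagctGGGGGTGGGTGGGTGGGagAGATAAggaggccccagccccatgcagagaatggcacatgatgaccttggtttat
CNBP: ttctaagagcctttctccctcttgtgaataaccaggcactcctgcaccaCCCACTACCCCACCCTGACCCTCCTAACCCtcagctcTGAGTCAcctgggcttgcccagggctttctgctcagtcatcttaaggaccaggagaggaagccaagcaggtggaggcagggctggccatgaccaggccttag

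The next sequences are single motifs, written 5′ to 3′ on the G strand with every run of 3 or more guanines in capitals. They were chosen to show the range of forms, from motifs without CpG in surroundings poorer in GC to the CpG-dense motifs of island-like members. The HBE1 motif (chr11:5306052-5306074, minus strand) lay in the locus control region upstream of the beta-like globin genes, in an annotated intron. The 3 GATA1 motifs (chrX:48641361-48641385, minus, chrX:48641400-48641429, minus, and chrX:48641489-48641510, plus) lay in a single peak 3532 bp upstream of the start of GATA1. The loop of the GATA1 motif at chrX:48641400-48641429 contains a GATA site within the G4 motif itself, and so does the LDB1 motif (chr10:103872337-103872368, minus, first intron). The ALAS2 motif (chrX:55041729-55041749, plus) and the ABL1 motif (chr9:133721373-133721401, minus) were intronic. The FTH1 motif (chr11:61739616-61739646, plus, outside genes) is a repeat of 8 guanine runs joined by single adenines. The NOL4L motif (chr20:31171067-31171119, minus, first intron), the YY1 motif (chr14:100680942-100681008, minus, in a non-coding gene) and the ARID1B motif (chr6:157008459-157008494, plus, outside genes) came from island-like sequence and held 7, 9 and 7 CpG dinucleotides.
HBE1: GGGaGGGtGGGGtGGGGtcaGGG
GATA1 first: GGGGGagacgaGGGcGGGGGtGGGG
GATA1 second: GGGagtGGGcagataaGGGaatcagtGGGG
GATA1 last: GGGGatGGGGGaGGGaatGGGG
LDB1: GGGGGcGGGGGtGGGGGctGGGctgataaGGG
ALAS2: GGGGctaGGGtGGGGGaGGGG
ABL1: GGGtgcaGGGaGGGGcaGGGcagtGGGGG
FTH1: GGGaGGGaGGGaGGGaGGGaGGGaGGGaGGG
NOL4L: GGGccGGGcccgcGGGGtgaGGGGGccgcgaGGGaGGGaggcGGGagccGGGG
YY1: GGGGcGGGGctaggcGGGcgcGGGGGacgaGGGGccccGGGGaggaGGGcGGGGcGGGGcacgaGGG
ARID1B: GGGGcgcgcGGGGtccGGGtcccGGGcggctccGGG

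A G4 motif became rarer with distance from a transcript start. Of the 14352 distal peaks 8.70% held one (interval 8.25 to 9.17%), against 38.5% of the promoter peaks (37.7 to 39.3%). The share was 43.2% with the midpoint within 100 bp of a start and 17.0% from 750 to 1000 bp. It was 14.1% (11.6 to 17.0%) from 1000 to 1250 bp, 9.38% from 2000 to 5000 bp, 7.20% from 10000 to 50000 bp and 4.86% (3.46 to 6.77%) beyond 50000 bp. The median GC content of all peaks in these classes fell as well, from 67% to 43.25% over the 400 bp around the midpoint. Its part in the fall of the share was not tested. The rule placed its threshold on a smooth slope. On the outer side, 91 motif peaks at 1000 to 1250 bp had a median width of 490 bp, a median GC content of 64.75% and a GATA motif in 34.1%. On the inner side, 136 motif peaks at 750 to 1000 bp had a median width of 454.5 bp, a median GC content of 64.25% and a GATA motif in 30.9%. Among members the share with a GATA motif was 61.1% from 10000 to 50000 bp and 68.8% beyond 50000 bp, while CpG-island-like sequence fell from 51.6% at 1000 to 1250 bp to 15.6% beyond 50000 bp. Members of different distance were thus not alike.

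**Figure D1:**
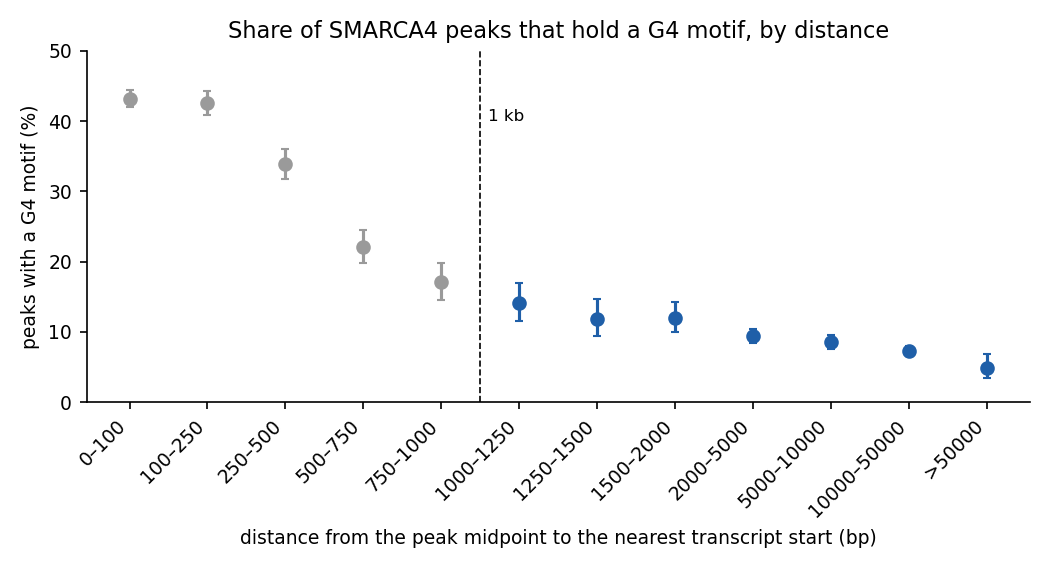
Percentage of SMARCA4 peaks that hold a G4 motif (vertical axis) in classes of distance from the peak midpoint to the nearest transcript start in bp (horizontal axis), with 95% Wilson intervals as bars. The dashed line marks the 1 kb limit, grey points are promoter peaks and blue points distal peaks, and the share falls from 43.2% in the nearest class to 4.86% in the farthest.

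Members were wider than other distal peaks, with a median width of 487 bp (95% binomial interval of the median 464 to 507 bp) against 329 bp, but a wide peak is more likely to contain a motif and this difference was not tested. Widths of members ran from 45 to 4895 bp, 71 were narrower than 200 bp and 601 were at least 500 bp wide. The midpoint lay a median of 5371.5 bp (4893 to 5826 bp) from the nearest transcript start of any kind and 12063 bp (11132 to 13477 bp) from the nearest coding one. For other distal peaks the coding distance was 18624.5 bp (17980 to 19356 bp). In 105 members an edge still came within 1 kb of a start. The nearest coding start lay within 1000 to 2000 bp in 12.7% of members and beyond 100000 bp in 8.73%. Members lay upstream of that start in 570 cases (45.7%, 42.9 to 48.4%), and other distal peaks in 47.2%.

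By annotation 508 members (40.7%) had their midpoint in an intron of a coding gene and 506 (40.5%) outside every annotated gene. A further 144 lay only in a non-coding gene, 53 in a non-coding part of an exon of a coding gene and 37 (2.96%) in coding sequence. Compared with the other distal peaks, members were less often intronic (40.7% against 49.2%, odds ratio 0.708, 0.629 to 0.797) and more often outside genes (40.5% against 34.2%, odds ratio 1.31, 1.165 to 1.48). Coding sequence held 2.96% of members and 1.24% of other distal peaks (odds ratio 2.44, 1.70 to 3.51, adjusted p = 1.26e-05, two-sided Fisher's exact test, Benjamini-Hochberg adjusted over 9 position features), and with the distance limit at 5 kb the odds ratio was 1.75 (0.865 to 3.52, adjusted p = 0.132, Fisher's exact test). Within classes of 5 points of GC content, compared by the Mantel-Haenszel odds ratio, the direction for coding sequence turned (0.466, 0.305 to 0.713, and 0.572, 0.380 to 0.859, with classes of the GC content outside the G4 motifs), and the intervals of the intronic share (0.936, 0.820 to 1.07) and of the share outside genes (1.07, 0.938 to 1.23) included 1. Location in the last 5 Mb of a chromosome, seen in 19.2% of members and 9.52% of other distal peaks (odds ratio 2.264, 1.94 to 2.64), likewise did not differ within GC classes (0.929, 0.777 to 1.11).

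The members were unevenly spread over the chromosomes. Chromosome 19, the chromosome richest in genes for its length, held 159 of them, which is 19.8% of its distal peaks (17.2 to 22.7%) and 26.9 per 10 Mb. Chromosomes 16, 22 and 17 followed with 13.3%, 12.4% and 12.2% of their distal peaks. The lowest shares among the autosomes were 4.33% on chromosome 4 (2.93 to 6.37%) and 4.49% on chromosome 13 (2.29 to 8.62%).

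Members had company more often than other distal peaks, but not more often than promoter G4-motif peaks. Another SMARCA4 peak lay within 5 kb of 681 members (54.6%), against 45.3% of the other distal peaks (odds ratio 1.45, 1.29 to 1.63, adjusted p = 1.21e-09, Fisher's exact test as above), and within GC classes the odds ratio was 1.25 (1.10 to 1.43). Of those nearest neighbours 367 were distal peaks without a motif, 84 were other members, 112 were promoter peaks with a motif and 118 promoter peaks without one. Among promoter G4-motif peaks 56.8% had another peak within 5 kb. The odds ratio of members against them was 0.912 (0.806 to 1.03), and 0.841 (0.731 to 0.967) within GC classes. Peak width was not adjusted for in these comparisons, although members were wider than other distal peaks and the gap runs between peak edges. A SMARCA4 peak at the promoter of the nearest coding gene was about as frequent for members (51.3%) as for other distal peaks (49.6%), with an odds ratio of 1.07 (0.950 to 1.20, adjusted p = 0.273, Fisher's exact test), and with the distance limit at 2 kb it was 0.966. When the promoter peak itself had to hold a G4 motif, the shares were 35.8% and 29.1% (odds ratio 1.36, 1.20 to 1.54, adjusted p = 1.71e-06, Fisher's exact test), and 1.18 (1.03 to 1.35) within GC classes. A G4-motif peak at the promoter was thus somewhat more frequent at the genes nearest to members, also at equal GC content of the distal window. The GC content of the promoter was not matched. Members also lay nearer to coding starts, and no odds ratio over distance classes is given here for this feature.

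Of the 10 factor patterns searched, GATA was the most frequent beside the G4 motifs. The patterns differ in length and in the number of spellings, and shares expected from base composition were not computed. Factor motifs were searched on both strands in the 400 bp around the midpoint, with all G4 motifs masked so that no factor motif could overlap them. The GATA motif was GATAA or GATAG preceded by A or T, and it occurred in 628 members (50.3%, interval 47.5 to 53.1%). Over the same length it occurred in 51.4% of the windows of all 28265 peaks, in 76.6% of other distal peaks and in 15.1% of promoter G4-motif peaks. The AP-1 motif was TGACTCA or TGAGTCA, present in 261 members (20.9%, 18.7 to 23.3%), in 16.4% of all peaks, 24.9% of other distal peaks and 5.59% of promoter G4-motif peaks. The composite element of erythroid enhancers, CTG followed by 7 or 8 bases and a GATA motif, and so overlapping the GATA count, was present in 165 members (13.2%), in 11.9% of all peaks and in 19.8% of other distal peaks. The SP/KLF box GGGCGG, found in 37.9% of all peaks, stood in 501 members (40.1%) outside the masked G4 motifs. It was present in 11.8% of other distal peaks and 76.8% of promoter G4-motif peaks. In these motifs the members lay between the other distal peaks and the promoter peaks that also held a G4 motif.

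**Figure D2:**
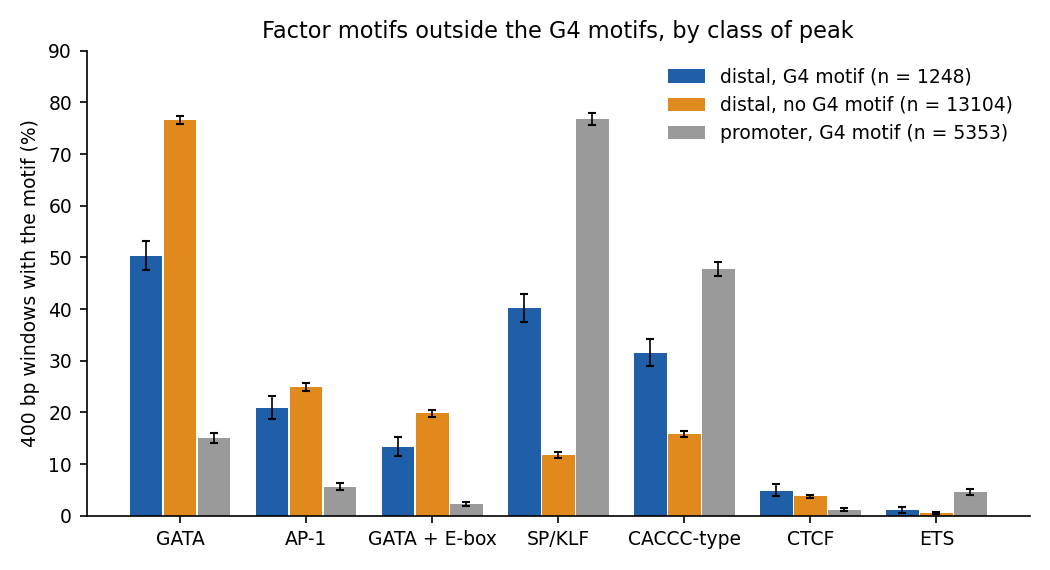
Percentage of the 400 bp windows (vertical axis) that hold each factor motif (horizontal axis) outside the G4 motifs, for distal peaks with and without a G4 motif and promoter peaks with one; error bars are 95% Wilson intervals. GATA is present in 50.3%, 76.6% and 15.1% of the windows of these classes, and the SP/KLF box in 40.1%, 11.8% and 76.8%.

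Set against other distal peaks, GATA had an odds ratio of 0.309 (0.274 to 0.347, adjusted p = 6.47e-81, two-sided Fisher's exact test, Benjamini-Hochberg adjusted over 10 factor motifs), and 0.472 (0.420 to 0.531) when the whole peak was searched. Members were also richer in GC, with a median of 58.25% against 45.25% in the 400 bp window. Within GC classes of the window the difference was gone (1.15, 0.991 to 1.34). These classes count the bases of the G4 motif, which the search masks, so the searched sequence of members is somewhat poorer in GC than the class says. With classes of the GC content outside the motifs, an alternative added after the data were seen, the odds ratio was 0.957 (0.828 to 1.11). By the window, between 55 and 60% GC a GATA motif occurred in 59.4% of 212 members and 52.2% of 918 other distal peaks. By the bases outside the motifs the shares in that class were 55.1% and 52.0%. AP-1 behaved alike, with an odds ratio of 0.798 (0.692 to 0.920, adjusted p = 0.00345, Fisher's exact test), 1.13 (0.962 to 1.32) within GC classes, 1.07 (0.915 to 1.25) with classes outside the motifs, and 1.02 when the whole peak was searched. For the composite GATA element the unstratified odds ratio was 0.616 (0.520 to 0.730) and the stratified one 1.24 (1.03 to 1.496), but 1.12 (0.934 to 1.34) with classes outside the motifs.

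At equal GC content outside the motifs, distal peaks with and without a G4 motif thus carried GATA, AP-1 and the composite element at shares that this list could not separate. The SP/KLF box depended on what was counted. Its odds ratio went from 5.01 (4.42 to 5.68) to 1.00 (0.848 to 1.18) within GC classes of the window, and to 1.27 (1.08 to 1.49) within classes of the GC content outside the motifs. Without masking, boxes within the G4 motifs count too. By the rule other distal peaks hold no such motif inside the peak, although the 400 bp window can reach past it. The odds ratio was then 7.84 unstratified and 1.92 (1.65 to 2.25) within GC classes of the window.

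Other factor motifs changed direction within GC classes. The CTCF core motif was present in 60 members (4.81%), 3.74% of other distal peaks and 2.90% of all peaks. Its odds ratio of 1.30 (0.988 to 1.71, adjusted p = 0.0710, Fisher's exact test) became 0.563 (0.416 to 0.763) within GC classes of the window and 0.609 (0.453 to 0.820) with classes outside the motifs. It was 1.62 (adjusted p = 5.23e-04, Fisher's exact test) when the whole peak was searched and 1.35 (adjusted p = 0.0412, Fisher's exact test) without masking. The CACCC-type KLF motif (CCACACCC, CCACGCCC, CCCCACCC or CCCCGCCC), present in 28.5% of all peaks, was found in 31.5% of members and 15.9% of other distal peaks (odds ratio 2.44, 2.15 to 2.77), and in GC classes its odds ratio was 0.850 (0.728 to 0.992). With classes outside the motifs it was 0.954 (0.821 to 1.11). Without masking, matches within the G4 motifs count too, and other distal peaks hold no such motif inside the peak by the rule. The odds ratio was then 6.01 (5.33 to 6.78), and 2.34 (2.04 to 2.69) within GC classes, so part of this excess is set by the rule. The E-box CAGCTG stood in 26.8% of members, 24.6% of other distal peaks and 23.1% of all peaks. The ETS motif CCGGAAGT was present in 13 members, the RUNX motif TGTGGTTT in 40 and the NRF1 motif in 6, and among all peaks in 3.13%, 2.88% and 0.838%.

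**Figure D3:**
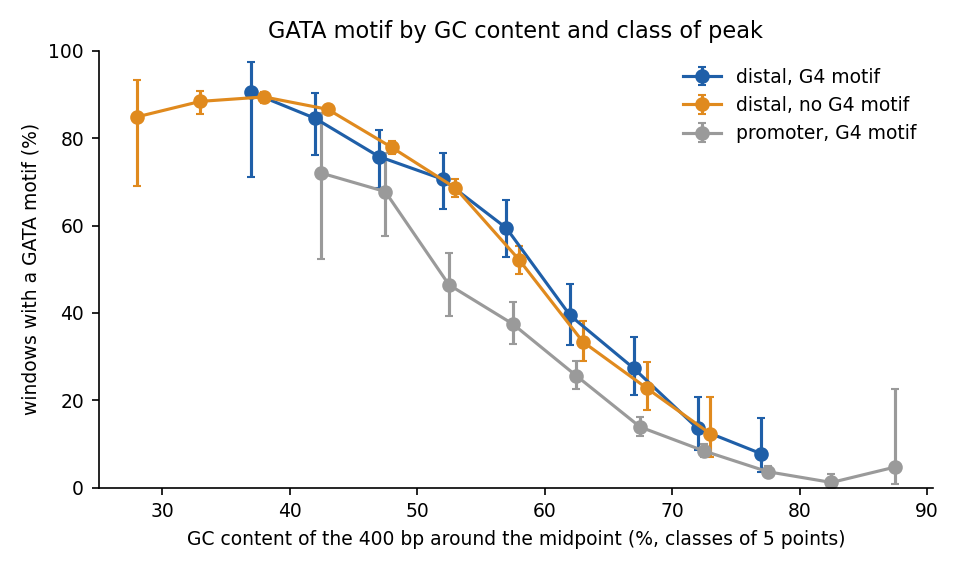
Percentage of 400 bp windows with a GATA motif (vertical axis) by GC content of the window in classes of 5 points (horizontal axis), for the classes of peak named in the key and for classes with at least 20 peaks; bars are 95% Wilson intervals. Between 55 and 60% GC the share is 59.4% in distal peaks with a G4 motif, 52.2% in those without and 37.5% in promoter G4-motif peaks.

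For most factor motifs the contrast with promoter G4-motif peaks remained within GC classes. A GATA motif had an odds ratio of 5.71 (4.99 to 6.52, adjusted p = 7.26e-141, two-sided Fisher's exact test, adjusted over 15 features) in members against promoter G4-motif peaks, and 2.17 (1.85 to 2.55) within GC classes. With classes outside the motifs it was 2.148 (1.83 to 2.52), and in the whole peak 3.62 (3.19 to 4.11) unstratified. AP-1 had 4.47 (3.74 to 5.35), and 2.29 (1.87 to 2.81) within classes. CTCF was present in 4.81% of members and 1.18% of promoter G4-motif peaks, with odds ratios of 4.24 (2.96 to 6.07) and 3.57 (2.40 to 5.31) within classes. The SP/KLF box (0.203, 0.178 to 0.231, and 0.535, 0.456 to 0.628, within classes) and the ETS motif (1.04% against 4.52%, odds ratio 0.222, 0.127 to 0.390) were the less frequent in members. The CACCC-type motif went from 0.503 (0.441 to 0.573) to 0.893 (0.770 to 1.04), so its difference was not seen within classes. A CpG-island-like window, with at least 50% GC and an observed-over-expected CpG ratio of at least 0.6, was found in 28.2% of members and 86.7% of promoter G4-motif peaks (odds ratio 0.0602, 0.0520 to 0.0697). In factor motifs the members differed from promoter G4-motif peaks at equal GC content, with more GATA, AP-1 and CTCF motifs and fewer SP/KLF and ETS motifs.

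Members also held fewer motifs each. A single G4 motif was found in 961 members (77.0%), 2 motifs in 179 (14.3%), 3 in 62, 4 in 21 and 5 or more in 25 (2.00%). At least 2 motifs occurred in 23.0% of members and 43.0% of promoter G4-motif peaks (odds ratio 0.396, 0.344 to 0.457, adjusted p = 2.03e-40, Fisher's exact test as above), and 0.833 (0.710 to 0.977) within GC classes. The 1744 motifs of the members were on the plus strand in 832 cases and on the minus strand in 912, and both strands were used in 12.6% of members. Per kb of peak there were 2.40 motifs in members and 2.61 in promoter G4-motif peaks. Members were at least 500 bp wide in 48.2% of cases, against 59.8% (odds ratio 0.624, 0.551 to 0.706). Motifs were most dense next to the midpoint, with 139 per 1000 members in the 40 bp after it and 24.0 per 1000 from 240 to 280 bp, but the rule itself confines them to the peak. Tandem repeats, counted as peaks in which over 20% of 12-base words occurred more than once, were rare in both classes, at 8 members (0.641%) and 7 promoter G4-motif peaks (0.131%). The odds ratio was 4.93 (1.78 to 13.6, adjusted p = 0.00362, Fisher's exact test), 3.96 (1.19 to 13.2) within GC classes and 2.85 (0.916 to 8.87) with classes outside the motifs. With words of 20 bases the share of members was 0.2404%, and the classes were not compared at that length.

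The motifs themselves were short and nearly all distinct. Read as longest matches, with any further guanine run within 7 bases added, the members held 1705 motifs with a median length of 26 bp and a range of 15 to 91 bp. They had 1703 distinct sequences, of which 2 occurred 2 times each. At least 5 separate runs were present in 563 motifs (33.0%). Among the 1065 motifs with 4 separate runs the commonest loop pattern was 1 base in every loop, in 44 (4.13%), followed by loops of 4, 1 and 1 bases in 20. The telomere-like word TTAGGG was found in 33 motifs. A GATA site overlapped a G4 motif in 14 members (1.12%), as in the GATA1 and LDB1 sequences above, and an AP-1 site in 2. SP/KLF boxes overlapped a G4 motif far more often, in 438 members (35.1%), and CACCC-type motifs in 508 (40.7%). In the 693 members with a GATA site anywhere in the peak outside the G4 motifs, the nearest one stood a median of 71 bp (63 to 78 bp) from a G4 motif, and in 272 of them (39.2%) it was within 50 bp. For AP-1 the median was 82 bp (71 to 93 bp) over 316 members.

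The next question was which G4 motifs away from transcript starts lay in SMARCA4 peaks at all. The reference was 279874 motifs of hg19 more than 1 kb from every start. A further 72 motifs were left out, because they lay in peaks with the midpoint within 1 kb of a start. The reference was not filtered for repeats or unique mapping, so some motifs may lie where no peak could be called. The effect of mapping on the comparisons below was not tested. Of the reference motifs 1600 (0.572%, 0.544 to 0.6003%) lay inside a distal peak. The share rose with the GC content of the surrounding 400 bp, from 0.0442% (0.0150 to 0.130%) between 30 and 35% to 3.54% (3.07 to 4.07%) between 70 and 75%, and was 1.11% (0.754 to 1.64%) between 80 and 85%. Among the 8 features of form compared, the clearest mark of the motifs in peaks was a CpG dinucleotide within the motif. It was present in 60.3% of those inside and 30.3% of those outside. The odds ratio was 3.49 (3.16 to 3.86, adjusted p = 3.14e-133, two-sided Fisher's exact test, Benjamini-Hochberg adjusted over 8 features of form), and 2.28 (2.05 to 2.54) within GC classes. In surroundings that were not island-like the shares were 44.7% of 1068 and 28.7% of 269541 (odds ratio 2.00, 1.77 to 2.26003), and over classes of GC and CpG content together the odds ratio was 1.28 (1.14 to 1.45). These last comparisons were chosen after the values were seen.

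The other features of form were smaller or changed within GC classes. In the 744 motifs in distal peaks with a coding host gene on a single strand, the guanines were on the coding strand in 397 (53.4%), against 48.0% of 134217 outside (odds ratio 1.24, 1.07 to 1.43, adjusted p = 0.00580, Fisher's exact test as above), and 1.23 (1.06 to 1.42) within GC classes. A loop of 1 base was present in 69.4% inside and 67.2% outside (1.10, 0.993 to 1.23, and 1.19, 1.07 to 1.33, within classes). Loops of 1 base throughout were the rarer inside peaks (4.38% against 7.10%, 0.598, 0.471 to 0.761), but not within classes (1.1598, 0.909 to 1.48). At least 5 guanine runs were present in 32.9% inside and 28.9% outside (1.20, 1.08 to 1.34), and within GC classes the odds ratio was 1.05 (0.946 to 1.17). Another motif within 100 bp accompanied 23.4% inside and 13.7% outside (1.92, 1.71 to 2.16), yet within classes it was the rarer inside peaks (0.718, 0.631 to 0.817). Motifs of the same peak share surroundings and are not independent.

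**Figure D4:**
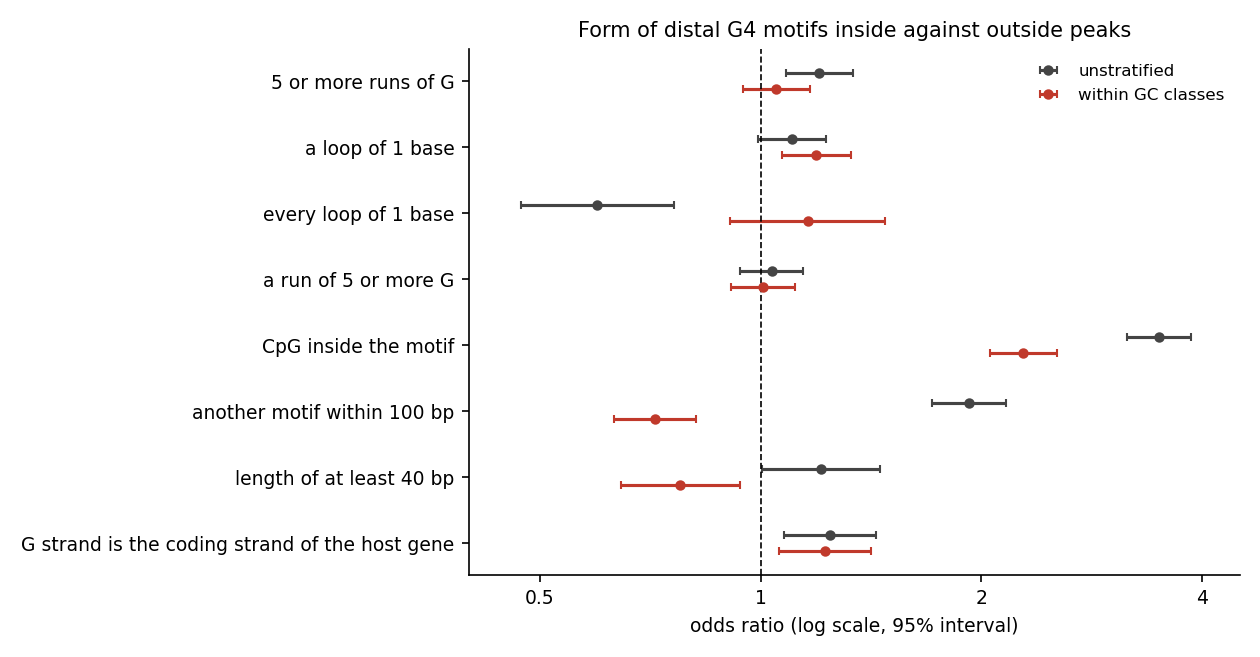
Odds ratios (horizontal axis, log scale) of each feature of form for the 1600 distal G4 motifs inside SMARCA4 peaks against the 278274 outside, unstratified in grey and within GC classes in red, with 95% confidence intervals. A CpG inside the motif stands highest at 3.49 and 2.28, and another motif within 100 bp changes side, from 1.92 to 0.718.

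By sequence the members fell into a larger CpG-poor kind and a smaller island-like kind, a division chosen after the values were seen. Island-like windows made up 28.2% of members and 4.37% of other distal peaks (odds ratio 8.61, 7.42 to 9.99, adjusted p = 9.54e-147, Fisher's exact test), but within GC classes the odds ratio was 0.764 (0.608 to 0.958), and 1.14 (0.918 to 1.41) with classes outside the motifs. The 896 CpG-poor members (71.8%) had a median GC content of 54.5% and a median observed-over-expected CpG of 0.266, and the 352 island-like members (28.2%) 70.75% and 0.794. A GATA motif was present in 63.3% of the CpG-poor and 17.3% of the island-like members (odds ratio 0.122, 0.0894 to 0.165, for island-like against CpG-poor), and 0.449 (0.299 to 0.675) within GC classes. AP-1 was present in 26.1% and 7.67% (0.235, 0.154 to 0.358), and 0.282 (0.152 to 0.523) within classes. The composite GATA element stood in 160 CpG-poor members and 5 island-like ones. The SP/KLF box went the other way, with 25.2% and 78.1% (odds ratio 10.6, 7.89 to 14.2, and 2.102, 1.42 to 3.11, within classes). At least 2 G4 motifs were present in 13.5% of CpG-poor and 47.2% of island-like members, and coding sequence held 1.23% and 7.39%. Within GC classes the odds ratio fell from 5.72 to 1.63 (1.09 to 2.42) for the former, and from 6.42 to 1.68 (0.581 to 4.87), an interval that includes 1, for the latter. Island-like members lay nearer to a coding start, at a median of 7688.5 bp (6355 to 9469 bp) against 14893 bp (12403 to 16551 bp).

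Among the 352 island-like members, several features had shares close to those of the 572 island-like distal peaks that held no G4 motif. AP-1 was present in 7.67% and 8.22% (odds ratio 0.928, 0.567 to 1.52), CTCF in 6.82% and 8.57% (0.781, 0.470 to 1.30), a neighbouring peak within 5 kb in 58.8% and 54.4% (1.20, 0.916 to 1.57) and coding sequence in 7.39% and 8.04% (0.912, 0.553 to 1.504). Within GC classes coding sequence was the rarer in the members (0.407, 0.237 to 0.698, and 0.488, 0.290 to 0.819, with classes outside the motifs). GATA was less frequent in the members (17.3% against 27.8%, 0.544, 0.391 to 0.758, adjusted p = 0.00227, Fisher's exact test adjusted over 18 features) and the SP/KLF box more frequent (78.1% against 61.2%, 2.27, 1.67 to 3.07), and within GC classes the odds ratios were 1.03 (0.701 to 1.51) and 1.03 (0.726 to 1.47), or 0.904 (0.625 to 1.31) and 1.24 (0.881 to 1.75) with classes outside the motifs. The members of this kind were richer in GC, at 70.75% against 62%.

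Taken by GATA and AP-1 motifs together, 488 members had GATA alone, 121 AP-1 alone, 140 both and 499 neither. Members with both lay a median of 7431 bp from a transcript start, and 2.143% of them were island-like. Those with neither lay at 4330 bp and were island-like in 53.5% of cases. Among other distal peaks 16.4% had neither motif, against 39.98% of members (37.3 to 42.7%).

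**Figure D5:**
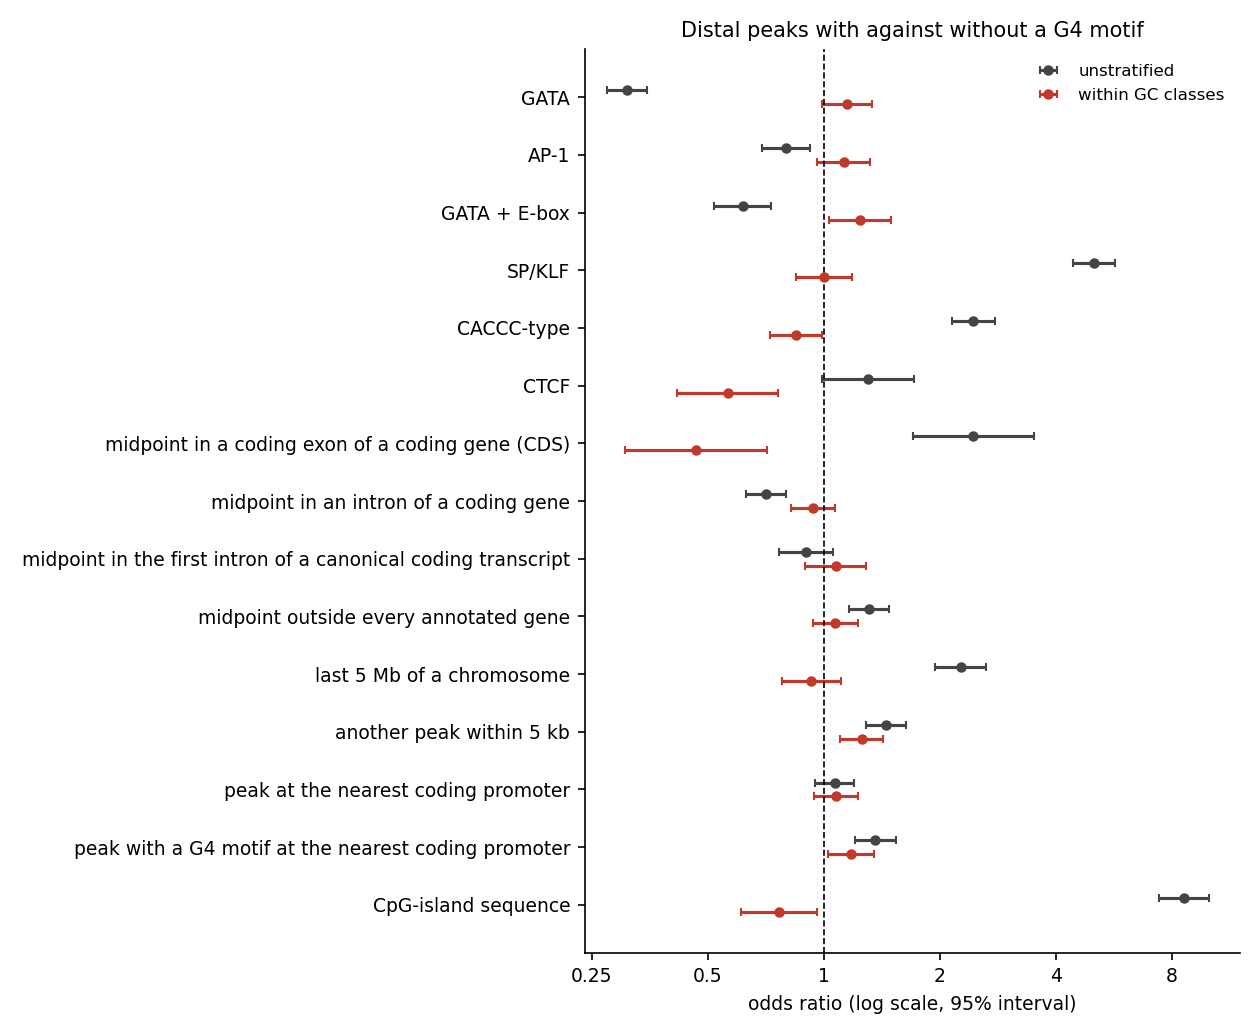
Odds ratios (horizontal axis, log scale) of factor motifs and positions in distal peaks with a G4 motif (n = 1248) against distal peaks without one (n = 13104), unstratified in grey and within GC classes in red, with 95% confidence intervals. Most of the large unstratified ratios move towards 1 within GC classes, as for SP/KLF from 5.01 to 1.00, whereas another peak within 5 kb stays above 1 at 1.45 and 1.25. Peak width was not adjusted for.

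Each member was assigned to the coding gene with the nearest transcript start, which need not be the gene it acts on. In this way 1038 of 19794 coding genes (5.24%) received at least 1 member, and 6438 (32.5%) at least 1 distal peak of either kind. A single member was assigned to 890 of the genes, 2 to 109 and 3 or more to the rest. In all, 7 lists of genes were read against these shares as counts, without a test.

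Erythroid and myeloid transcription factors received members at 9 of 19 genes, while 16 of the 19 had any distal peak. Of their 60 distal peaks 17 were members (28.3%), whereas 8.70% of all distal peaks were. ZFPM1 had 4 of them, all in its introns, between 2188 and 55655 bp from its start, and each with a GATA motif in the 400 bp window. The first (chr16:88521627-88522818) was island-like with 4 G4 motifs. GATA2 had 3, at 2509, 4598 and 55985 bp upstream, all with a GATA motif. GFI1B, which encodes a repressor needed for erythroid and megakaryocytic development, also had 3, at 2083, 12764 and 17627 bp. The peak of KLF1, the erythroid activator of adult beta-globin, had its midpoint in the coding sequence (chr19:12995646-12997523), was 1878 bp wide and held 5 motifs. LYL1, a basic helix-loop-helix factor related to TAL1, had 2 members with 2 and 6 motifs, 6530 and 4891 bp downstream of its start. Both lay in a non-coding part of an exon of a coding gene, which need not be LYL1. GATA1 had the upstream peak whose motifs are printed above (chrX:48641086-48641746), with no GATA motif outside the masked G4 motifs. LDB1, the adaptor that links GATA1 complexes, ZBTB7A, a repressor of fetal globin, and RUNX1 had 1 member each, all with a GATA motif. The KLF1 peak, the LYL1 peak with 2 motifs and the GFI1B peak at 2083 bp had no GATA motif in the 400 bp window. Over all members 50.3% had one.

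Globin, heme and iron genes had members at 5 of 26 genes, and 15 of the 26 had a distal peak. Of their 44 distal peaks 5 were members (11.4%), near the share over all distal peaks. The HBE1 member (chr11:5305910-5306256, 347 bp) lay 14908 bp upstream of the embryonic epsilon-globin gene and held GATA and AP-1 motifs. The HBQ1 member (chr16:231154-231824), in the alpha-globin cluster, was island-like with 73.5% GC and had neither motif. ALAS2, the erythroid enzyme for the first step of heme synthesis, had an intronic member 5251 bp from its start (chrX:55041285-55041945) with a GATA motif. FTH1, the ferritin heavy chain, had one 4357 bp upstream with an AP-1 motif, and SLC25A37, the mitochondrial iron importer mitoferrin, one in its first intron with an AP-1 motif. The FTH1 and SLC25A37 members had no GATA motif in the 400 bp window. Red cell membrane genes had members at 5 of 20 genes, with 17 of 20 having a distal peak, and 5 of their 50 distal peaks were members (10%). They were EPB41 (protein 4.1), SPTB (beta-spectrin), GYPC (glycophorin C), ANK1 (ankyrin) and SLC4A1 (band 3), with 1 member each, and the EPB41 peak was the widest of them at 1912 bp. GATA motifs accompanied those of EPB41, SPTB and GYPC, but not those of ANK1 and SLC4A1. Over all members 50.3% had a GATA motif and 20.9% an AP-1 motif.

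BCR-ABL and cytokine signalling genes had members at 6 of 19 genes, with 16 of 19 having a distal peak, and 10 of their 61 distal peaks were members. The fusion partners that define this leukaemia, ABL1 and BCR, had 1 and 2 members, all with a GATA motif, and the ABL1 peak (chr9:133721105-133721727) lay in the first intron 10775 bp downstream of the start. PIM1, a survival kinase induced by STAT5, had 3, SOCS3, an inhibitor of cytokine signalling, had 2, and STAT5A and BCL2L1 (BCL-XL) had 1 each. A GATA motif stood in the window of the STAT5A peak and of the PIM1 peak 4018 bp downstream. The other PIM1 peaks and the SOCS3 peaks had none, and over all members 50.3% had one. The BCL2L1 peak (chr20:30296273-30296498, 226 bp) held 2 motifs on the minus strand and neither GATA nor AP-1. SWI/SNF subunit genes had members at 4 of 28 genes, namely ARID1A, ARID1B with 2, BICRA and BICRAL, and 12 of 28 had a distal peak. The ARID1B members lay 88476 and 55939 bp upstream and were island-like, while the ARID1A member lay in the first intron and was not. Genes for G4 helicases and G4-binding proteins had members at 3 of 20 (SP1, YY1 and CNBP), with 7 of 20 having a distal peak. Of 14 genes known for a promoter G4, VEGFA and MYC had members, and 6 had a distal peak. The MYC member lay 818994 bp from its start. Of the distal peaks of these lists 5 of 34 (14.7%), 3 of 12 (25%) and 3 of 36 (8.33%) were members. The lists are too small to rank.

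The members with the most G4 motifs were wide. NOL4L led with 13 motifs in its first intron (chr20:31170827-31172172, 1346 bp, 80.1% GC, 1130 bp from the start), followed by ACTB (beta-actin) with 12 (chr7:5594087-5596616, 7069 bp downstream) and KLF9, a Kruppel-like factor, with 10 (chr9:73033551-73035975, 5190 bp upstream). JUND (an AP-1 subunit) and BICRAL had 7 each. LYL1, ZMIZ1, BHLHE40 and FLNC had 6 each. The ACTB and KLF9 peaks were also among the 5 widest, at 2530 and 2425 bp. The others were PPP1R15A (GADD34, the stress-induced phosphatase subunit) at 4895 bp with 2 motifs, DDIT4 (an inhibitor of mTORC1 induced by stress) at 2653 bp with 3, and SSBP3, a partner of LDB1, at 2500 bp with 5. Repeated 12-base words made up at most 7.12% of any named member, in a SOCS3 peak, so none of them was a tandem repeat by the measure above.

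Reads from the members could be placed on the genome. Of reads of 75 bases cut every 25 bases from each 400 bp window, at least 95% mapped to a single place in 1172 members (93.9%, 92.4 to 95.1%). This was so for 85.8% of other distal peaks (85.2 to 86.4%) and 97.1% of promoter G4-motif peaks. Every named member reached 100%. With windows below 95% left out of both classes, 9.44% of distal peaks held a motif.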

How the data were processed

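SMARCA4 ChIP-seq in K562 cells gave 3 ChIP and 3 input libraries. The authors used cutadapt 1.16 for trimming and BWA 0.7.15 for alignment to hg19, used Picard 2.14.0 to mark and SAMtools 1.6 to remove duplicates, called peaks with MACS2 2.1.1 and merged replicates with bedtools 2.26.0. The deposited list holds only start and end positions in bp (unit: other), so no depth or spread per sample was computed from it. G4 motifs were searched on both strands of hg19, and transcript starts came from GENCODE 44 lifted to the same build (254376 transcripts, 19794 coding genes). Factor motifs were searched in the 400 bp around each midpoint after G4 motifs were masked. The CTCF core is CCANNAGNNGG with C or G, C or T, A or G, and G or T at the N positions in turn, and the NRF1 motif is the palindrome of GCGCA. Classes were compared with two-sided Fisher's exact tests, Benjamini-Hochberg adjusted within each family, and Mantel-Haenszel odds ratios over classes of 5 points of the GC content of the whole window. Reads of 75 bases were mapped back with minimap2 2.31-r1302, and a mapping quality of at least 10 counted as unique. Python 3.11.15 with numpy 2.4.6, scipy 1.17.1, pandas 2.3.3 and matplotlib 3.10.9 was used, and the code was tested on simulated data.

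The members and lists were chosen with earlier results of these data known. The genes named in the report are the members' nearest coding genes that belong to the 7 lists, those of the 10 members with the most motifs and those of the 5 widest members. Of all that this rule names, 1 item is not reported here. For lists that give more than 20 members the rule names those with the most motifs and counts the rest; the lists together gave more than this and no single list did, and naming all of them was chosen after their values were seen. The split by CpG content, the island-like comparison class the comparison over GC and CpG classes together and the classes of GC content outside the motifs were chosen after the values were seen. Alternatives covered the distance limit, the set of starts, peak width, loop length, motif placement, chromosomes, the search window, GC and distance classes, motif clusters, repeat length, masking and unique reads.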

Additional observations from a re-analysis of the deposited data

How the results depend on the processing

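Of 237 values computed under other settings, 163 were classed as unchanged. The odds ratios among them neither changed direction nor crossed the threshold of 0.05, and the shares stayed within their interval. Plain counts have no interval. Those classed as unchanged included 1788 members with coding starts only and 983 above 2 kb, against 1248. They also included 877 coding genes with a member within 50 kb, against 1038. Odds ratios below compare distal G4-motif peaks with other distal peaks unless stated, and the cause was not tested for any change. With a distance limit above 5 kb there were 657 members, and the share of distal peaks with a motif was 7.49% (8.03% above 2 kb). Loops of 1 to 12 bases gave 2228 members and a share of 15.5%. The share was 10.6% with coding starts only, 9.84% for peaks of at least 200 bp and, added after seeing the data, 9.44% for windows with unique reads. Words of 20 bases gave tandem repeats in 0.2404% of members. AP-1 had an odds ratio of 0.803 above 5 kb (adjusted p = 0.0512, Fisher's exact test) and 1.02 in the whole peak, and RUNX 1.00 in the whole peak. The threshold was newly passed in the whole peak by CTCF (1.62) and the E-box (1.62), without masking by CTCF (1.35), the E-box (1.159) and RUNX (0.718), and by first introns with coding starts only (0.750) and with loops to 12 bases (0.874). It was no longer passed by ETS in the whole peak (1.78) and by coding sequence above 5 kb (1.75). A peak at the nearest coding promoter had 0.966 above 2 kb, 0.988 above 5 kb, 0.972 over distance classes and 0.994 where the peak had to cover the start.

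Mantel-Haenszel odds ratios over GC classes changed direction for GATA (1.15), AP-1 (1.13), the composite GATA element (1.24), the E-box (0.842), CACCC (0.850), ETS (0.794), RUNX (1.34), CTCF (0.563), NRF1 (0.551), coding sequence (0.466), first introns (1.07), the last 5 Mb (0.929) and CpG-island sequence (0.764). A change of direction means only that the estimate crossed 1. The intervals of GATA, AP-1, ETS, RUNX, NRF1, first introns and the last 5 Mb included 1. For motifs inside against outside peaks the stratified odds ratios changed direction for loops of 1 base throughout (1.1598), another motif within 100 bp (0.718) and a length of at least 40 bp (0.776), while 5 or more runs lost the difference (1.05), and a loop of 1 base gained one (1.19). The interval for loops of 1 base throughout included 1. The SP/KLF box (1.00), introns (0.936) and positions outside genes (1.07) also lost theirs within GC classes. With GC classes of the bases outside the G4 motifs the direction changed for AP-1 (1.07), the composite element (1.12), the E-box (0.866), CACCC (0.954), ETS (0.916), RUNX (1.24), CTCF (0.609), NRF1 (0.682), coding sequence (0.572) and first introns (1.05). Among them only the intervals of CTCF and coding sequence excluded 1. In these classes GATA (0.957), the last 5 Mb (1.02), CpG-island sequence (1.14), introns (0.906) and positions outside genes (1.10) lost their difference. Without masking, GC classes of the window changed the direction for GATA (1.18), AP-1 (1.13), the composite element (1.30), the E-box (0.871), ETS (0.794), RUNX (1.34), CTCF (0.583) and NRF1 (0.551). The intervals of AP-1, the E-box, ETS, RUNX and NRF1 again included 1. Motifs above 5 kb turned a loop of 1 base (0.958) and a run of 5 or more guanines (0.845), and 1 motif per cluster turned the latter (0.967). A length of at least 40 bp passed the threshold in these settings (1.41 and 1.29). Alternatives without masking, with GC outside the motifs, with unique reads, and those for the promoter and CpG comparisons were added after seeing the data. No paired analysis was possible because the list pools the replicates, and for the same reason no replicate could be left out. The list holds no depth per library, and the effect of depth on which regions were found was not tested.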

Other observations

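A few coding genes were nearest to many members, and they were chosen after their values were seen. The share of members among all distal peaks was 8.70%. BCOR, which encodes a corepressor of BCL6, had 10 members among its 27 distal peaks, with 19 G4 motifs over 481102 bp of the X chromosome, from 5660 to 389021 bp away from its start. Of the members 8 were island-like and 4 had a GATA motif. GSE1, a coiled-coil protein of corepressor complexes, had 9 members among 30 distal peaks, with 16 motifs over 281473 bp of chromosome 16, and 6 of the members had a GATA motif and 2 were island-like. CXXC5, a CXXC zinc finger protein, had 8 members among 16 distal peaks, with 15 motifs over 74147 bp of chromosome 5, with a GATA motif in 4 and island-like sequence in 5. The nearest gene need not be the gene acted on.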
